A study of Mus musculus with 2 samples.

Results

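The canonical Wnt pathway was examined through 10 mouse genes that carry the signal from the cell surface to the nucleus and feed back on it: the Frizzled receptors Fzd1, Fzd2, Fzd3 and Fzd7, the coreceptors Lrp5 and Lrp6, the signal mediator Ctnnb1, the nuclear factors Tcf7l2 and Lef1, and the feedback gene Axin2. They were selected by gene symbol, 10 of the 32285 genes in the count matrices, and all 10 symbols were found. The measurements come from scRNA-Seq of GL261, a mouse glioma cell line on a C57BL/6 background that is labelled as an astrocytoma, grown either attached to the flask (adherent cells) or as floating aggregates (neurosphere cells). All cells were kept in DMEM with 10% FBS and penicillin-streptomycin, and the neurosphere cells also received EGF at 20 ng/ml, FGF at 20 ng/ml and B-27 for 12 days. Each culture was measured as 1 library, so culture, library, growth factors and the way the cells were dissociated cannot be told apart, and no test of the culture difference was possible.

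In canonical Wnt signaling, a secreted Wnt protein binds a Frizzled receptor together with LRP5 or LRP6. The complex halts the destruction of beta-catenin, the product of Ctnnb1, which otherwise is marked for degradation on a scaffold of axin and APC. Beta-catenin then enters the nucleus and works with TCF/LEF factors such as TCF7L2 and LEF1 to switch on target genes, and Axin2, itself a scaffold of the destruction complex, is a widely used target that restrains the pathway. In the brain the pathway is known for its part in neural stem cell maintenance and in the development of the oligodendrocyte lineage, and in glioma it has been studied in stem-like cells.

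The kept cells numbered 5051 of 5764 called adherent cells and 4276 of 4951 called neurosphere cells. They held 46290996 and 64943938 UMIs (unique molecular identifiers, which count captured transcripts once each), with medians of 8260 and 13198.5 UMIs per cell. Because neurosphere cells were deeper, shares of cells are also given with each cell thinned at random to 5000 UMIs, which kept 4464 adherent and 4196 neurosphere cells and left out 587 and 80 shallower cells. The libraries shared 12 cell barcodes. The 4 neural stem markers were detected in both cultures at unequal levels. In adherent and neurosphere cells in turn, Vim had 5583 and 1763 CPM (UMIs scaled to a common library total), Cd44 106 and 54.4, Nes 104 and 201, and Sox2 209 and 180. Of the 6 astrocyte and glioma markers, S100b had 161 and 255 CPM. Gfap and Aqp4 stood at 0.648 and 0 CPM in adherent cells and at 0.416 and 0 CPM in neurosphere cells, and Slc1a2 had at most 4 UMIs in a library. Slc1a3, a glial glutamate transporter gene, had 370 CPM in the adherent and 80.5 CPM in the neurosphere library, and Aldh1l1 had 3.63 and 5.39 CPM. Of 6 immune markers, 5 had at most 3 UMIs in either library, and Cd68 had 10.5 CPM in the former culture and 4.25 CPM in the latter. The 3 epithelial markers summed to 25.6 and 3173 CPM in the adherent and the neurosphere library, nearly all of it Krt8 in the latter, the 3 fibroblast markers to 9.14 and 389 CPM, and the 5 oligodendrocyte lineage markers to 751 and 2506 CPM. Single markers did not all follow these sums: in the adherent and the neurosphere library in turn, Olig1 had 141 and 1292 CPM but Mbp 255 and 124, and Col1a1 had 2.51 and 329 CPM but Pdgfra 6.61 and 4.87. The neural stem sum went the other way, at 6002 and 2198 CPM, and the 3 neuron and 3 endothelial markers summed to 6.63 and 18.5 CPM and to 1.32 and 3.23 CPM. These sums moved with culture alongside the Wnt genes, and their part in the Wnt results was not tested.

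Genes of TCF/LEF-driven programs are often recognised by short TCF/LEF binding letters near their starts, so start regions of members were searched for them. Shown are the Axin2 window, as that of the feedback target, and 2 windows chosen because they held a match. RefSeq gave windows, from 250 bases before to 50 bases after a start, for 11 starts of 6 members (Fzd1, Fzd7, Ctnnb1, Tcf7l2, Lef1 and Axin2) on build GRCm38.p6. Each window was searched on both strands for CTTTGAA or CTTTGAT and also for CTTTGTA or CTTTGTT, and 3 of the 11 windows held a match, beside 5544 of all 32851 windows (16.9%). The printed windows lie on the plus strand at chr11:108920099-108920398 for Axin2, the feedback target, at chr1:59481897-59482196 for Fzd7, a receptor, and at chr19:55895071-55895370 for a start inside Tcf7l2, with capitals marking the matched letters.
Axin2: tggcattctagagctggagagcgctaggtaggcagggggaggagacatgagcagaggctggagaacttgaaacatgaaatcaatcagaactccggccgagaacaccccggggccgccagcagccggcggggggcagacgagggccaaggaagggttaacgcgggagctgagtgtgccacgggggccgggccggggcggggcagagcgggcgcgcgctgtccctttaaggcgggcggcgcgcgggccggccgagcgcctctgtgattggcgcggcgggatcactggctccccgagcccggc
Fzd7: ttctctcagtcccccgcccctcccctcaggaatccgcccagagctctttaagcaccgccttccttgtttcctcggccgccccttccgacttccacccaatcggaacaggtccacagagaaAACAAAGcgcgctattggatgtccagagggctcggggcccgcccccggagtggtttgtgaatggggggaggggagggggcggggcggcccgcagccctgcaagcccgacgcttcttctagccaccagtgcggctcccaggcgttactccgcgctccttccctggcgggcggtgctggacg
Tcf7l2: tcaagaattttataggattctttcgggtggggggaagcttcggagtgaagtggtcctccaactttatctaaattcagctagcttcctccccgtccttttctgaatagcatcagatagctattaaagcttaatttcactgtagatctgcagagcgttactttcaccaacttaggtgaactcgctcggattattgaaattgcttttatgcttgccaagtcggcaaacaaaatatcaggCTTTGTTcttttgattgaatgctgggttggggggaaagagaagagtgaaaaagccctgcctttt
The Axin2 window, 70.0% G and C, held none of the searched letters. In the Fzd7 window the match AACAAAG, the reverse complement of CTTTGTT, began 130 bases before the start, and in the Tcf7l2 window CTTTGTT began 14 bases before it. The window at the first Tcf7l2 start, chr19:55741560-55741859, held none of the letters. The third match, TACAAAG, lay 147 bases before the most downstream of the 4 Lef1 starts. The windows of Fzd1, of Ctnnb1 and of the other Lef1 starts held none. A match is a description of the letters and does not show that a factor binds there.

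Most of the 10 genes were higher in neurosphere cells. Of the 9 members that reached 50 UMIs in the libraries together, 6 were over 2-fold higher in neurosphere cells (Fzd1, Fzd2, Lrp6, Ctnnb1, Tcf7l2 and Axin2), where 21.7% of the 14654 genes that reached this number were. Only Lrp5 was over 2-fold lower, where 11.7% of those genes were, and Fzd3 and Fzd7 passed neither limit. Of the 9, Fzd1, Fzd7 and Axin2 reached 50 UMIs in the neurosphere library alone, as did 1322 of the 14654 genes, so Fzd1 and Axin2 could be counted only through the library where they were higher. The other 6 reached it in each library, and among them Fzd2, Lrp6, Ctnnb1 and Tcf7l2 were the ones over 2-fold higher. The members were chosen with earlier results of these data known, so these counts are descriptions. The tenth member, Lef1, had too few UMIs to be counted. The median log2 fold change (neurosphere over adherent CPM) was 1.24 over the 9 members and 0.32 over all 14654 genes. The 95% intervals below are exact and cover counting error only. They leave out the spread between cells and the spread between cultures, and 1 library each cannot show the latter.

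**Figure D1:**
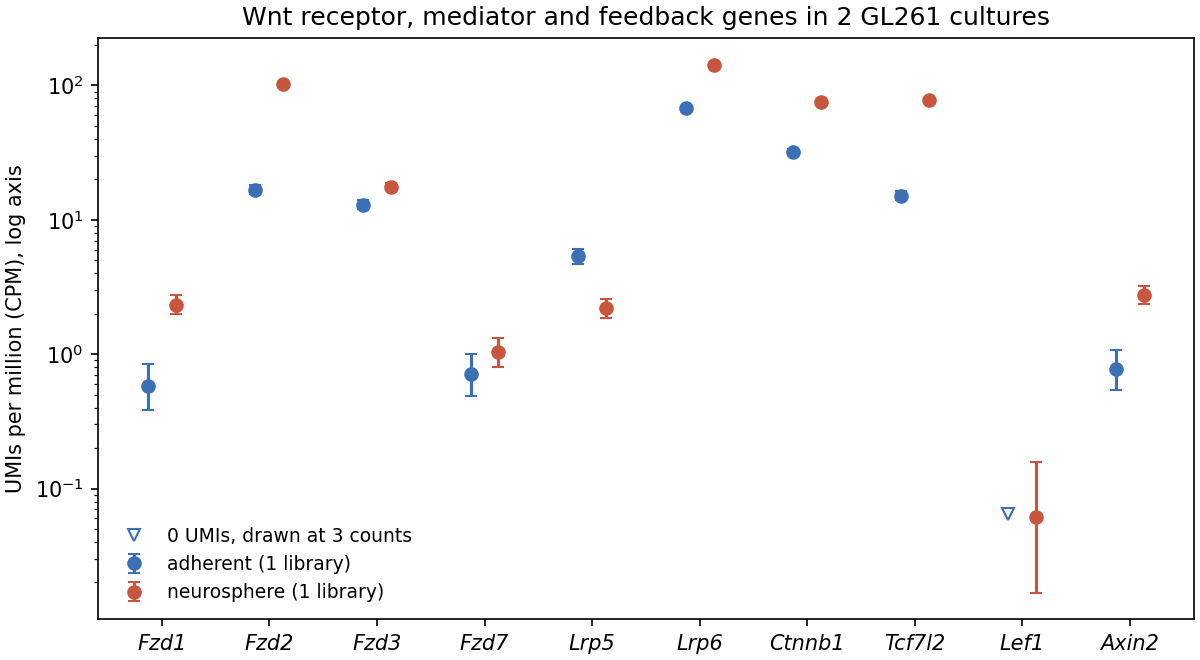
CPM of the 10 genes (log axis) in the adherent library (blue) and the neurosphere library (red), with exact 95% Poisson intervals; the open triangle marks Lef1, at 0 UMIs in adherent cells and drawn at the level of 3 counts. Red points lie above blue for Fzd1, Fzd2, Fzd3, Lrp6, Ctnnb1, Tcf7l2 and Axin2 with no overlap of intervals, below blue for Lrp5, and within overlapping intervals for Fzd7.

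Fzd2 had the largest fold change of the 9 members counted. Fzd2 (ENSMUSG00000050288, a single-exon gene on the plus strand of chromosome 11, bases 102604396 to 102608058 of GRCm38) encodes a seven-pass receptor for Wnt proteins. It had 778 UMIs in adherent cells, or 16.8 CPM (95% interval 15.65 to 18.03), and 6707 UMIs in neurosphere cells, or 103 CPM (101 to 106). Neurosphere cells thus stood 6.14-fold higher, or 2.62 (2.51 to 2.73) as a log2 fold change. Cells with at least 1 Fzd2 UMI made up 13.7% of adherent and 61.4% of neurosphere cells, and 8.02% (7.24 to 8.86) and 37.3% (35.8 to 38.8) at equal depth.

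Fzd1 (chromosome 5, 4753839 to 4758035, minus strand), another single-exon receptor gene of the same subfamily, was scarce in both cultures. It had 27 UMIs (0.583 CPM) in adherent and 152 UMIs (2.34 CPM) in neurosphere cells, for a log2 fold change of 2.00 (1.41 to 2.65). No adherent cell held more than 1 of its UMIs. Fzd7 (chromosome 1, 59482424 to 59486955, plus strand), the closest relative of these receptors, had 33 UMIs (0.713 CPM) and 67 UMIs (1.03 CPM), and its log2 fold change of 0.53 had an interval of -0.09 to 1.18, so a difference was not detectable at this depth. Taken as the mean of per-cell values, the Fzd7 value was -0.0027.

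Fzd3 (chromosome 14, 65192449 to 65262463, minus strand), a receptor best known for axon guidance and planar polarity, had 600 UMIs (12.96 CPM, 11.95 to 14.04) in adherent and 1148 UMIs (17.7 CPM, 16.7 to 18.7) in neurosphere cells. Its log2 fold change of 0.45 (0.30 to 0.59) lay close to the all-gene median of 0.32. At equal depth, 6.18% of adherent and 8.82% of neurosphere cells held a Fzd3 UMI.

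The make-up of the Frizzled transcripts differed between cultures. All 10 Frizzled genes together had 1734 UMIs (37.5 CPM) in adherent and 8598 UMIs (132 CPM) in neurosphere cells. Fzd2 gave 44.9% (exact binomial interval 42.5 to 47.2) of the adherent and 78.0% (77.1 to 78.9) of the neurosphere Frizzled UMIs. The share of Fzd3 was 34.6% in adherent and 13.4% in neurosphere cells, and that of Fzd4 was 10.3% and 2.01%. Fzd4 itself went from 3.85 to 2.66 CPM, a log2 difference of -0.53 (-0.84 to -0.22), so its share also moved with the larger Fzd2 total. These shares are of UMIs from a 3′ protocol, not scaled by length, and serve to compare cultures rather than genes. Whether reads in introns were counted is not given in the sources used here, and if they were, the UMIs of long genes with introns, such as Fzd3, Lrp6 and Tcf7l2, would include unspliced transcripts. Fzd8 and Fzd10 had no UMI in either library. Among annotated transcripts, the longest run of identical bases was 47 between Fzd1 and Fzd2, 47 between Fzd1 and Fzd7, and 38 between Fzd2 and Fzd7.

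The coreceptors Lrp5 and Lrp6, which bind Wnt alongside a Frizzled and recruit axin to the membrane, moved in opposite directions. Lrp6 (chromosome 6, 134446476 to 134566965, minus strand) had 3143 UMIs (67.9 CPM, 65.5 to 70.3) in adherent and 9164 UMIs (141 CPM, 138 to 144) in neurosphere cells, for a log2 fold change of 1.06 (1.00 to 1.11). It stood just past the 2-fold limit and fell under it with TMM scaling (0.84) and with the trend on gene length removed (0.88). An Lrp6 UMI was present in 42.3% of the adherent cells and 79.6% of the neurosphere cells (26.9% and 50.6% at equal depth).

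Lrp5 (chromosome 19, 3584828 to 3686564, minus strand) had 247 UMIs (5.34 CPM, 4.69 to 6.04) in adherent and 143 UMIs (2.20 CPM, 1.86 to 2.59) in neurosphere cells. It was 2.42-fold lower in the latter, a log2 fold change of -1.28 (-1.58 to -0.97). The adherent UMIs were uneven among cells: 8 adherent cells held 3 or more, with up to 7 in a cell. At equal depth, 2.37% of adherent and 1.10% of neurosphere cells held an Lrp5 UMI. Of the UMIs of both coreceptors, Lrp5 gave 7.29% (6.43 to 8.21) in adherent and 1.54% (1.30 to 1.81) in neurosphere cells.

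Ctnnb1 (chromosome 9, 120929216 to 120960507, plus strand), whose product also links cadherins to the cytoskeleton, was 2.36-fold higher in neurosphere cells. It had 1474 UMIs (31.8 CPM, 30.2 to 33.5) in adherent and 4880 UMIs (75.1 CPM, 73.0 to 77.3) in neurosphere cells, for a log2 fold change of 1.24 (1.15 to 1.32). At equal depth, 15.3% of the adherent and 32.3% of the neurosphere cells held a Ctnnb1 UMI. The gene overlaps Ulk4 on the opposite strand, which had 116 and 173 UMIs. Transcript levels do not show how much beta-catenin protein is stable or nuclear.

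Tcf7l2 (chromosome 19, 55741820 to 55933654, plus strand), the DNA-binding partner of beta-catenin, was 5.12-fold higher in neurosphere cells. It had 701 UMIs (15.1 CPM, 14.0 to 16.3) in adherent and 5033 UMIs (77.5 CPM, 75.4 to 79.7) in neurosphere cells, for a log2 fold change of 2.36 (2.24 to 2.47). At equal depth, 7.44% of adherent and 30.7% of neurosphere cells held a Tcf7l2 UMI. The same-strand gene Ppnr, which overlaps it, had 7 and 33 UMIs.

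Lef1 (chromosome 3, 131110471 to 131224356, plus strand), a TCF/LEF factor that is itself a target of the pathway, was close to absent from the counts. It had 0 UMIs in 5051 adherent cells, which allows up to 0.0648 CPM at a floor of 3 counts, and 4 UMIs in 3 neurosphere cells (0.0616 CPM), so no fold is given. Of the UMIs of the 4 TCF/LEF genes, Tcf7l2 gave 69.1% (66.2 to 72.0) in adherent and 83.4% (82.5 to 84.4) in neurosphere cells, and Tcf7, a TCF/LEF factor known from T cells, gave 14.5% (12.4 to 16.8) and 1.26% (0.99 to 1.57). Tcf7l1, often a repressor, held 16.4% and 15.2%, with overlapping intervals.

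Axin2 (chromosome 11, 108920349 to 108950783, plus strand), whose start region is printed above, was 3.54-fold higher in neurosphere cells but remained rare. It had 36 UMIs (0.778 CPM, 0.54 to 1.08) in adherent and 179 UMIs (2.76 CPM, 2.37 to 3.19) in neurosphere cells, for a log2 fold change of 1.83 (1.30 to 2.38). Only 35 of 5051 adherent and 172 of 4276 neurosphere cells held any, or 0.314% and 1.72% at equal depth. Axin1, the constitutive paralog, had a log2 fold change of 0.87, and Axin2 gave 5.49% (3.87 to 7.52) of adherent and 10.1% (8.74 to 11.6) of neurosphere Axin UMIs.

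**Figure D2:**
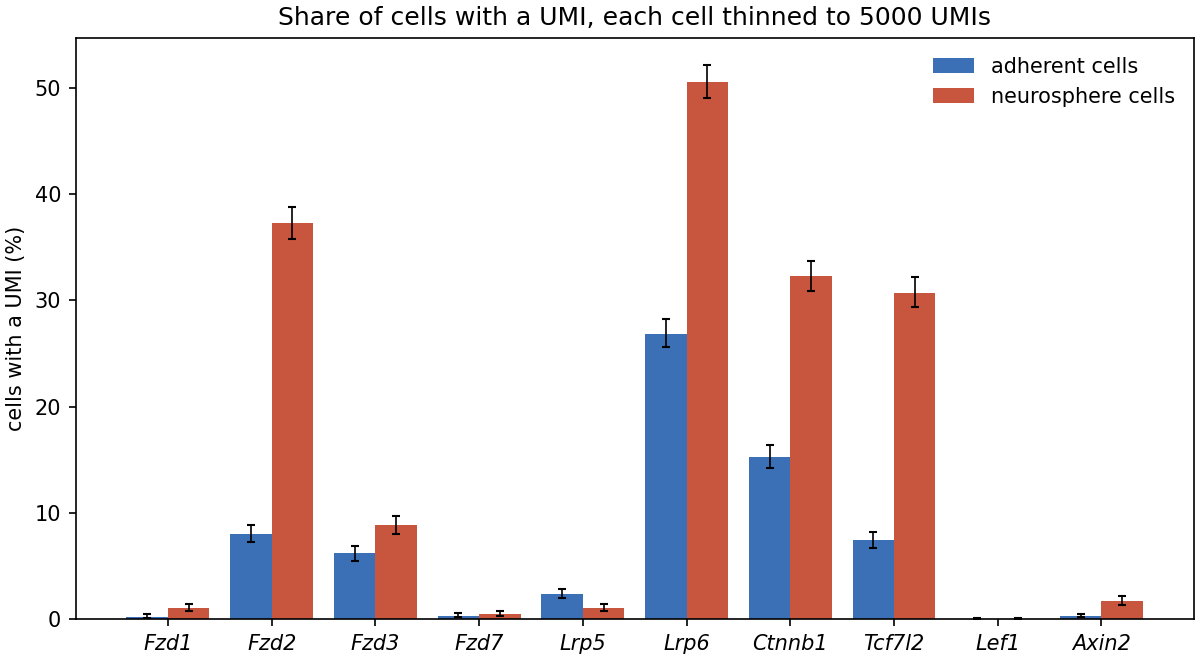
Share of cells (%) with at least 1 UMI of each gene after every cell was thinned to 5000 UMIs, for 4464 adherent (blue) and 4196 neurosphere (red) cells, with exact 95% binomial intervals. Lrp6, Fzd2, Ctnnb1 and Tcf7l2 were each found in over 30% of neurosphere cells, and Lrp5 alone has a taller blue bar.

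Individual neurosphere cells held more of the pathway than adherent cells. The median cell held UMIs of 1 member in adherent and 3 in neurosphere cells, and of 1 and 2 at equal depth. Cells without any of the 10 transcripts made up 30.7% of the adherent and 2.29% of the neurosphere library, or 48.8% (47.3 to 50.3) and 15.8% (14.73 to 16.96) at equal depth. At equal depth, a member Frizzled was found in 14.3% of the adherent and 43.5% of the neurosphere cells, and Lrp5 or Lrp6 in 28.4% and 51.1%. A member Frizzled together with Lrp5 or Lrp6 occurred in 4.30% (3.72 to 4.94) and 23.5% (22.3 to 24.9). The same pair with Tcf7l2 occurred in 0.291% (0.16 to 0.50) and 8.94% (8.09 to 9.84). Such joint shares rise with the single shares alone. Lrp6 was found in 28.8% of adherent cells with Fzd2 and 26.7% of those without it. For neurosphere cells these shares were 54.9% and 48.0%. Neither library holds a cell type known to lack these genes, so the part of free RNA in these shares was not tested.

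Before thinning, single neurosphere cells held up to 19 UMIs of Fzd2, 17 of Lrp6, 22 of Tcf7l2 and 11 of Ctnnb1, while no adherent cell held more than 3 of Fzd2, 9 of Lrp6, 4 of Tcf7l2 or 4 of Ctnnb1.

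The levels also varied within each culture. Seurat clustering, run within each library without the Wnt list genes among its variable genes, gave 10 adherent and 11 neurosphere clusters, given by number and leading genes. These values describe the clusters and are no test. In neurosphere cells, Fzd2 ranged 7.68-fold, from 34.0 CPM (30.5 to 37.8) in cluster 5, led by Prss56, Igf1 and Fosl1, to 261 CPM (247 to 275) in cluster 0, led by Comp, Pdzd2 and Ism1. Cluster 0 also had the highest CPM of 3 other pathway genes followed here, Wnt6 (734), Wls (598) and Rnf43 (83.8). Its Axin2 value was the highest as well (5.26 CPM, 3.50 to 7.60, on 28 UMIs). That interval overlapped those of other clusters, such as cluster 9 (4.91 CPM, 2.54 to 8.58), so the Axin2 rank is not resolved. Tcf7l2 ranged 5.80-fold and Lrp6 3.09-fold, both lowest in cluster 5 (27.7 and 78.5 CPM) and highest in cluster 6 (161 and 243 CPM), led by Enpp2, Dusp15 and Gm4876. For Tcf7l2 the intervals of cluster 6 (147 to 175) and cluster 0 (134 to 154, around 144 CPM) overlapped. At a resolution of 0.8, which gave 8 neurosphere clusters, Tcf7l2 was instead highest in the cluster led by Comp, Pdzd2 and Ism1 (153 CPM), while Lrp6 was still highest in the one led by Enpp2 (222 CPM), and both were again lowest in the one led by Prss56. Ctnnb1 ranged 1.94-fold, from 57.6 CPM in cluster 5 to 112 CPM in cluster 8, led by Aatk, Chn2 and Mag, and at the lower resolution its highest cluster was the one led by Enpp2 (101 CPM). Depth moved against these levels at the ends: the median was 22393 UMIs per cell in cluster 5 but 7785 in cluster 0 and 8074.5 in cluster 6, and its part was not tested.

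For Fzd2 and Ctnnb1 every neurosphere cluster, 11 of 11, stood above the highest adherent cluster, which had 21.0 CPM of Fzd2 and 46.7 CPM of Ctnnb1. Some Ctnnb1 intervals overlapped, such as 40.1 to 54.0 in adherent cluster 5 and 53.0 to 62.5 in neurosphere cluster 5. For the scarce Axin2, 9 of 11 neurosphere clusters stood above the highest adherent cluster, and for Fzd1 10 of 11. Both of these orders rest on few UMIs and many intervals overlap. The highest adherent cluster had 5 Axin2 UMIs (1.30 CPM, 0.42 to 3.04) or 10 Fzd1 UMIs (1.16 CPM, 0.56 to 2.14), and 1 neurosphere cluster counted above it had 3 Fzd1 UMIs (1.23 CPM, 0.25 to 3.59). Adherent cluster 9, with 49 cells, a median of only 2647 UMIs and Lars2, Pcdh9 and Dmd as its leading genes, stood apart, with 345 CPM of Lrp6, 103 CPM of Tcf7l2 and 29.3 CPM of Lrp5. With it, 4 of 11 neurosphere clusters exceeded every adherent cluster in Tcf7l2, 2 in Fzd3 and 0 in Lrp6. Without it, as chosen after these values were seen, 11 did in Tcf7l2, 6 in Fzd3 and 10 in Lrp6. Lrp5 was below the lowest adherent cluster in 9 of 11 neurosphere clusters either way.

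**Figure D3:**
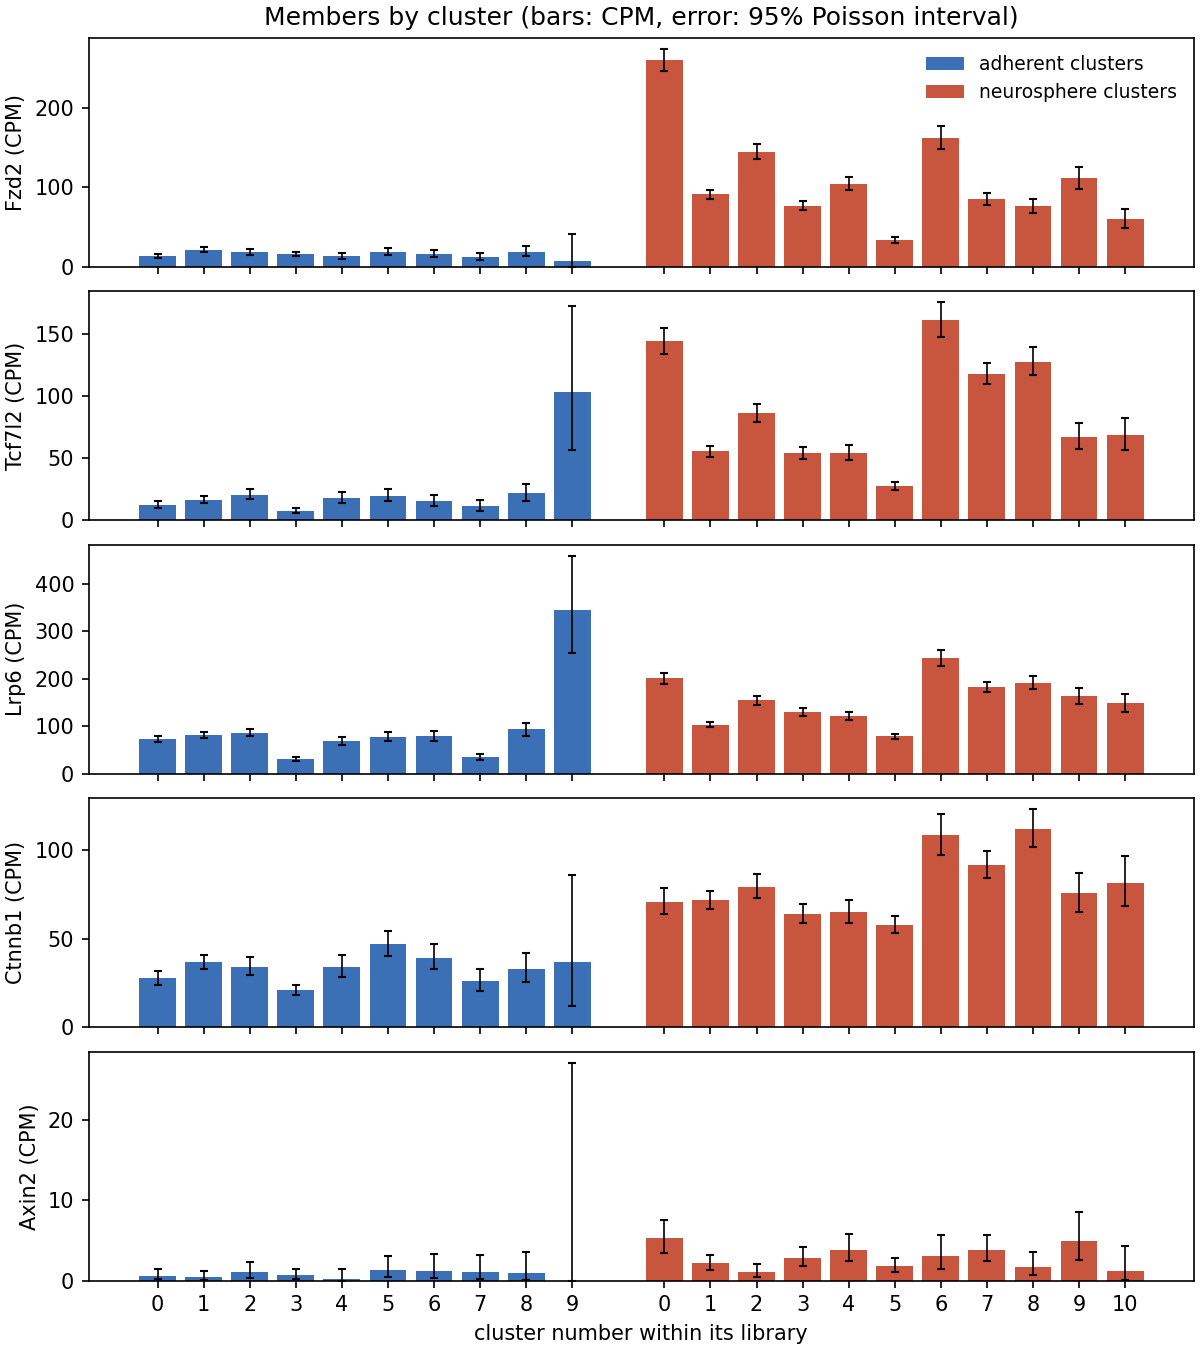
CPM of Fzd2, Tcf7l2, Lrp6, Ctnnb1 and Axin2 in each of 10 adherent (blue) and 11 neurosphere (red) clusters, with exact 95% Poisson intervals. Fzd2 peaks in neurosphere cluster 0 at 261 CPM, and the 49 cells of adherent cluster 9 set the highest Lrp6 bar, 345 CPM, with a wide interval.

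The genes whose CPM (log2, 1 CPM added) followed each member most closely over all 21 clusters were taken as a description, since clusters of a library share cells of 1 culture and the culture difference itself enters the correlation. For Fzd2 these were Gm45352 (r = 0.97), Gm31517 and Lmcd1. For Tcf7l2 they were Peli1 (0.98), Tcf4 and Map2, for Lrp6 Celf2 (0.99), Wasf3 and Atrx, and for Ctnnb1 Map3k1 (0.97), Wasf1 and Midn. For Fzd3 they were Top2b (0.94), Aldh6a1 and Rapgef1, for Lrp5 Parp16 (0.94), Grik4 and Gm17494, and for Axin2 Abhd15 (0.88), Rnf144b and Fos. Over the 11 neurosphere clusters alone, r was 0.93 for Gm45352, 0.95 for Peli1, 0.98 for Celf2, 0.93 for Map3k1 and 0.85 for Top2b, but 0.76 for Midn and, among the genes nearest Lrp5 and Axin2, between 0.46 (Gm17494) and 0.81 (Parp16), with Abhd15 at 0.62. Fzd1, Fzd7 and Lef1 had under 200 UMIs and were not compared.

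Neurosphere cells were next divided by whether they held a UMI of Wnt6, a Wnt ligand with 20 UMIs in adherent and 14908 in neurosphere cells. At equal depth, 1846 neurosphere cells with Wnt6 had Fzd2 at 177 CPM (169 to 186), and 2350 without it had 86.6 CPM (81.4 to 92.1), a log2 ratio of 1.03 (0.92 to 1.15). Axin2 had 44 UMIs (4.77 CPM) and 28 UMIs (2.38 CPM), a log2 ratio of 1.00 (0.28 to 1.74). Tcf7l2 differed by 0.17 (0.04 to 0.30), and the intervals for Lrp6, Ctnnb1 and Fzd3 included 0. The intervals leave out the spread between cells. Over all thinned neurosphere cells, the variance of UMIs per cell was 1.79 times the mean for Fzd2, 1.61 times for Tcf7l2 and 1.28 times for Lrp6. For Fzd3, Ctnnb1 and Axin2 it was 1.03, 1.01 and 0.98 times the mean. With all UMIs, where 2495 cells held Wnt6 and 1781 did not, the ratio was 0.94 (0.86 to 1.02) for Fzd2 and 0.57 (0.10 to 1.05) for Axin2. The values for Tcf7l2 and Ctnnb1 depended on this choice, since with all UMIs they were -0.03 (-0.11 to 0.05) and -0.19 (-0.28 to -0.11). All cells here came from 1 culture, and the cluster richest in Fzd2 was also the richest in Wnt6.

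Cells were also divided by proliferation transcripts (summed UMIs of Mki67, Top2a, Cenpf, Ube2c and Ccnb1). In neurosphere cells at equal depth, the 1814 cells with 3 or more of these UMIs had Fzd2 at 81.3 CPM and the 1471 cells with none had 187 CPM, a log2 ratio of -1.20 (-1.33 to -1.07). Tcf7l2 had a ratio of -0.58 (-0.73 to -0.44) and Lrp6 one of -0.42 (-0.53 to -0.30). Ctnnb1 had a small ratio of -0.16 (-0.33 to -0.0040), and the intervals of Fzd3 (-0.32, -0.66 to 0.01) and Axin2 (-0.54, -1.32 to 0.23) included 0. In adherent cells, 2902 cells with 3 or more and 548 cells with none gave a Fzd2 ratio of -0.07 (-0.52 to 0.40), and the intervals of the other members compared also included 0.

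**Figure D4:**
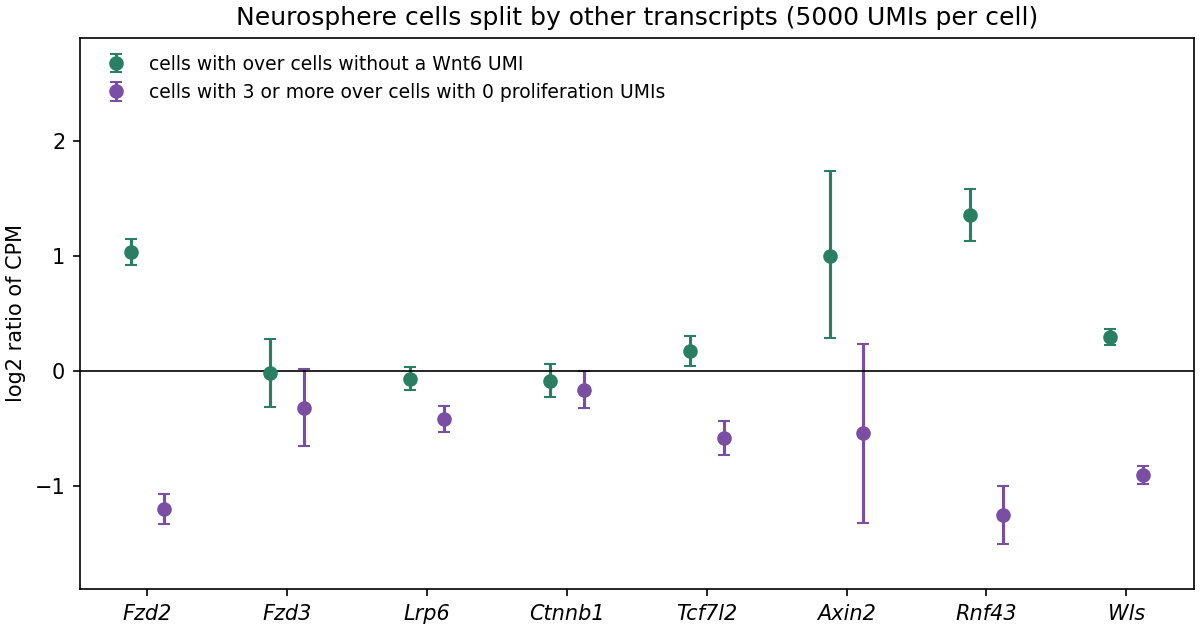
Log2 ratio of CPM within neurosphere cells thinned to 5000 UMIs, for cells with over cells without Wnt6 (green) and for cells with 3 or more over cells with 0 proliferation UMIs (purple), with exact 95% intervals for counting error. Fzd2 lies at 1.03 for Wnt6 and at -1.20 for proliferation, while Ctnnb1 lies at -0.09 and -0.16.

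The members sit in a pathway list of 107 genes grouped by role, 75 of which had at least 50 UMIs. Of these, 26 were over 2-fold higher and 8 over 2-fold lower in neurosphere cells, with a median log2 fold change of 0.71. With TMM scaling 19 were higher and 9 lower, since Lrp6, Fzd9, Znrf3, Dvl3, Btrc, Ctbp1 and Ep300 fell under the 2-fold limit and Apc2 passed it. With the mitochondrial and the ribosomal UMIs added to the totals, 34 were higher. Among the 66 that are not members, 20 were higher and 7 lower, beside 21.7% and 11.7% of all genes. Of the 75, 13 reached 50 UMIs in the neurosphere library alone, 9 of which were among the 26 higher, and 2 in the adherent library alone, both among the 8 lower. Such genes pass the minimum through the library where they are high, so the counts by role are descriptions.

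Ligands were the role with a median below 0 (-0.52), with 3 higher and 4 lower among 11 of 23 genes tested. Wnt6 rose by 9.05 on the log2 scale (8.43 to 9.77), from 0.432 to 230 CPM, and Wnt7b had 1.33. Wnt2b had 0 UMIs in adherent and 73 in neurosphere cells, 17.3-fold higher when the adherent library is set to a floor of 3 counts and the 73 UMIs are taken as exact. With the counting error of both libraries, the exact 95% interval of its log2 fold change began at 3.78, which is a smaller fold. Wnt9a (-1.87), Wnt5b (-1.49) and the Wnt amplifier Rspo1 (-2.40) were lower. Wls, the carrier that takes Wnt proteins to the cell surface, rose by 2.93 (37.4 to 285 CPM).

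Of 14 receptors tested among 19, 5 were higher and 2 lower, with a median of 0.78. Beyond the members, Fzd9 had 1.19, and Lgr6, a receptor for R-spondins, had -3.15 (5.31 to 0.601 CPM). Of 18 secreted and surface inhibitors, 6 reached 50 UMIs and 5 of these were higher. The minimum shaped that count, since Frzb (27 and 185 UMIs), Notum (5 and 109) and Rnf43 (21 and 1777) reached it through the neurosphere library alone, while Dkk3 (13 and 3) and Kremen2 (14 and 5) had more UMIs in the adherent library and stayed under it. Rnf43 and Znrf3, ubiquitin ligases that remove Frizzled and LRP6 from the membrane, had 5.91 (5.30 to 6.61, 0.454 to 27.4 CPM) and 1.02 (0.92 to 1.13). The secreted antagonists Frzb and Wif1 had 2.29 and 1.79.

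In the relay and destruction complex, 5 of 21 genes tested were higher, 1 was lower and the median was 0.45, a share near the 21.7% of all genes that were higher and a median near their 0.32. Dvl2 (1.84) and Dvl3 (1.01), which relay the signal from Frizzled, the kinase gene Gsk3b (1.24) and the ubiquitin ligase subunit gene Btrc (1.08) were higher, and Nkd2, an antagonist of dishevelled, was lower (-2.91). Of 18 nuclear factors tested, 7 were higher and 1 lower, with a median of 0.64. Besides Tcf7l2 and Ctnnb1, the higher genes were Tcf7l1 (1.98), the corepressors Tle2 (3.74) and Ctbp1 (1.03), and the coactivators Pygo1 (2.21) and Ep300 (1.10), and the lower gene was Tcf7 (-1.44).

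Feedback and common targets were mixed. Of 9 tested among 15, 4 were higher (Axin2, Rnf43, Znrf3 and Notum), 2 were lower (Nkd2 and Tcf7) and 3 passed neither limit. Of all genes, 21.7% were higher and 11.7% lower. Axin2, Rnf43 and Notum reached 50 UMIs through the neurosphere library alone. Znrf3 fell under the 2-fold limit with TMM scaling (0.81), with the gene length trend removed (0.81) and without the cell filter (0.99). The lists overlap: Rnf43, Znrf3 and Notum are also counted as inhibitors, Axin2 and Nkd2 in the relay and destruction complex, and Tcf7 as a nuclear factor. Those past neither limit were Ccnd1, a cyclin gene, with 0.66 (0.64 to 0.68), Myc with 0.75 (0.69 to 0.82) and Tnfrsf19 with -0.07 (-0.28 to 0.15). Sp5 had no UMI in either library, and Lef1, Nkd1, Dkk1, Apcdd1 and Lgr5 had under 50 UMIs over both.

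**Figure D5:**
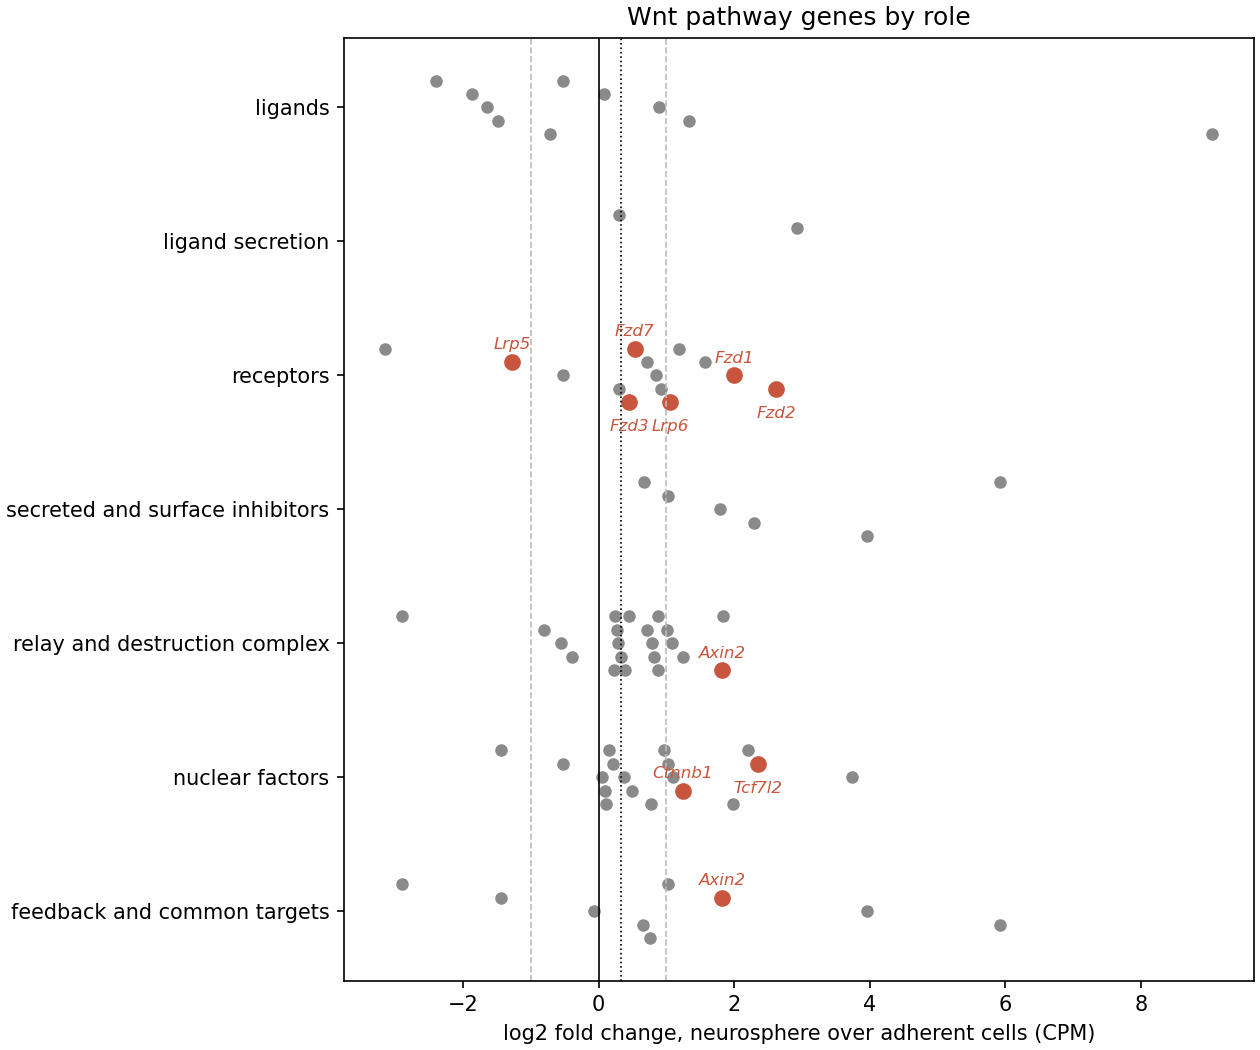
Log2 fold change (neurosphere over adherent CPM) of pathway genes that reached 50 UMIs, by role, with the 10-gene members in red; Axin2, Rnf43, Znrf3, Notum, Tcf7 and Nkd2 are drawn in 2 lists each, and Wnt2b, at 0 UMIs in adherent cells, is not drawn. The dotted line is the median of all genes (0.32) and the dashed lines are 2-fold changes, and ligands lie on both sides of 0.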

How the data were processed

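The authors deposited raw UMI counts for every gene in every called cell of the 2 libraries, made with Cell Ranger 7.0.1 on mm10 per the labels, from the 10x Genomics 3′ protocol. The counts are not normalized. The gene annotation and the setting for intronic reads are not given in the sources used here. After the study's methods, 13 mitochondrial and 101 ribosomal genes were removed, then cells under 1000 UMIs and under 1250 (adherent) or 2250 (neurosphere) genes. This left 5051 and 4276 cells. The study states 5073 and 4300, the numbers that passed here when cells were filtered before the genes were removed. UMIs were summed per library and scaled to CPM. With 1 library per culture no test was run. Intervals at 95% (Poisson for CPM, conditional for log2 fold changes, binomial for shares) cover counting error only, not the spread between cells or cultures. The fold change script was tested on simulated data. No doublet caller was run. A gene needed 50 UMIs over both libraries to be counted and 200 to be named from a pathway list, where it also had to pass 2-fold or to be at 0 in 1 library; other list genes named, such as Notum, Ccnd1 and Myc, were chosen after their values were seen. Clusters used Seurat 5.3.0 under R 4.3.3 (2000 variable genes less the Wnt list genes, 17 and 18 PCs, resolution 1.0). Positions come from the GENCODE annotation of GRCm38, where 32235 of 32285 identifiers matched, and start windows from RefSeq. Alternatives covered cell filters, scaling (TMM from edgeR 4.0.16), thinning, a lowess trend on gene length and clustering resolution. The remaining steps ran in Python 3.11.15 (scipy 1.17.1, statsmodels 0.14.6, numpy 2.4.6, pandas 2.3.3) and figures in matplotlib 3.10.9. The members and lists were chosen with earlier results of these data known.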

Additional observations from a re-analysis of the deposited data

Results flagged for a closer look

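Barcodes that the filter left out still held member UMIs. The 713 left-out adherent barcodes held 154 UMIs of the 10 genes in 392008 UMIs, or 393 CPM (333 to 460), where the kept cells had 152 CPM. The 675 left-out neurosphere barcodes held 375 UMIs in 574706, or 653 CPM (588 to 722), where the kept cells had 423 CPM. Fzd2 stood at 30.6 CPM (15.8 to 53.5) in the left-out adherent and at 181 CPM (148 to 219) in the left-out neurosphere barcodes. The median mitochondrial share of UMIs was 48.8% and 87.0% in the left-out barcodes and 2.02% and 3.97% in kept cells. No control samples exist for these barcodes, and they entered no comparison above.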

How the results depend on the processing

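The 9 members with a fold change (all but Lef1) kept their direction under 11 alternatives, except Fzd7 at -0.0027 with the mean of per-cell values. Of these 9, only Lrp6 crossed the 2-fold limit. The median of the members was 1.02 with TMM scaling, 1.46 with the mitochondrial and the ribosomal genes in the total and 1.69 with cells thinned to 5000 UMIs, where Fzd7, with 37 UMIs, fell under the minimum and 8 members remained; over all 9 the thinned median was 1.23. The median of all genes was 0.107 with TMM and 0.543 with those genes in the total, so every gene shifted by -0.22 or 0.22. Genes over 2-fold higher and lower numbered 3181 and 1711 in the values reported, 2354 and 2128 with TMM, and 4325 and 1375 with those genes in the total. With a minimum of 10 UMIs, 18062 genes were counted, 4258 higher and 2651 lower, and with 200 UMIs 12129 were counted, 2464 higher and 1149 lower. On the pathway list, 19 genes were higher and 9 lower with TMM, and 34 and 8 with those genes in the total. Leaving out adherent cluster 9, or filtering cells before genes, both added after seeing the data, changed no member's direction or side of the 2-fold limit. No paired analysis was possible because each culture had 1 library, and for the same reason no replicate could be left out.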
